A study of Mus musculus with 111 samples.

Results

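Nr5a2 knockdown embryos at the 2-cell stage were ranked by how much injected marker RNA their libraries held, and the embryos with the most were compared with those with the least. Marker level was the share of all estimated counts of a library, in counts per M (CPM), that fell on the reporter row injected with the Nr5a2 siRNAs. Within each of 3 experiments the highest and the lowest floor(n/3) knockdown embryos were taken, which gave 17 high marker and 17 low marker embryos of the 55 knockdown embryos and of 111 embryos in all. The 21 knockdown embryos in between were in neither group. The high and low groups held 5 and 5 embryos in experiment 1, 5 and 5 in experiment 2, and 7 and 7 in experiment 3.

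High and low marker embryos had the same labels. Both were of strain B6129F1 and came from fully grown, meiotically arrested oocytes that had received 2 siRNAs against Nr5a2 at 20 µM each together with RNA for histone H2B fused to rsEGFP at 150 ng per µl. The 56 control embryos received control siRNAs and RNA for H2B fused to EGFP. All oocytes were held in arrest for 5 h, matured for 12 h, fertilized in vitro and grown in KSOM medium, and each embryo gave 1 library of oligo dT primed cDNA without molecular identifiers. Experiments 1, 2 and 3 held 16, 16 and 23 knockdown embryos and 24, 7 and 25 control embryos. Marker RNA is injected so that embryos that took up the solution can be recognised, and the labels do not say whether embryos were picked by their fluorescence. Which embryos were littermates is not labelled either, and the tests here set differences against the spread from embryo to embryo.

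Nr5a2, also called LRH-1, is a nuclear receptor with no settled hormone that can bind DNA without a partner, and it has been studied as an activator of the zygotic genome. An siRNA injected into an oocyte loads into Argonaute 2, which then cuts the matching mRNA, so that stored maternal copies and later embryonic copies are both exposed to it. Marker RNA and siRNA are delivered from the same needle, and the volume delivered differs from cell to cell. Between injection and the 2-cell stage the injected mRNA is also subject to decay along with the maternal mRNA.

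The values that formed the groups are a description and were not tested. In experiment 1 the marker level was 182 to 320 CPM (median 203) in high marker embryos and 29.1 to 83.7 CPM (median 77.1) in low marker embryos. In experiment 2 it was 405 to 702 CPM (median 497) in high and 9.61 to 99.3 CPM (median 48.2) in low marker embryos. In experiment 3 it was 34.6 to 89.3 CPM (median 52.9) in high and 0.491 to 10.7 CPM (median 7.50) in low marker embryos. The medians of the groups were thus 2.63, 10.3 and 7.06 times apart in experiments 1, 2 and 3. High marker embryos of experiment 3 had about as much marker as low marker embryos of experiments 1 and 2, so high and low are relative to an experiment. At the upper limit, the nearest embryos inside and outside the high group had 182 and 176 CPM in experiment 1, 405 and 378 CPM in experiment 2, and 34.6 and 33.2 CPM in experiment 3. At the lower limit, the nearest embryos inside and outside the low group had 83.7 and 112 CPM, 99.3 and 125 CPM, and 10.7 and 10.9 CPM in the same order of experiments.

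**Figure D1:**
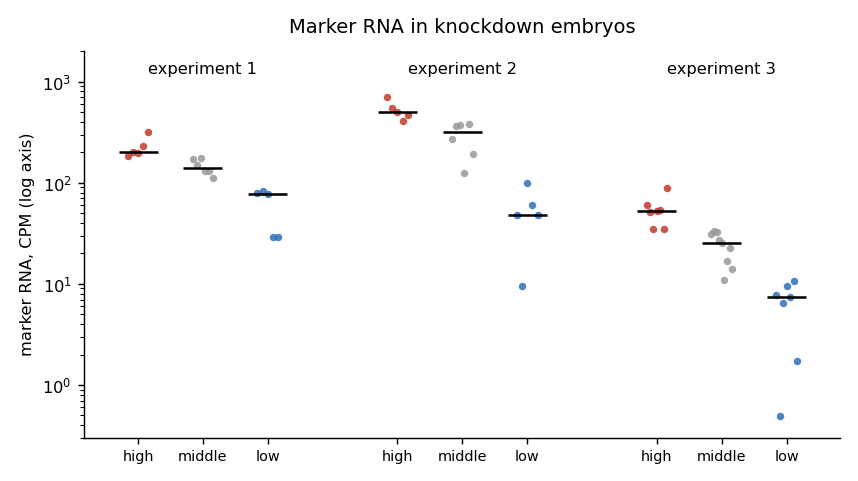
Marker RNA in each of the 55 knockdown embryos, in CPM on a log axis, by experiment and marker group. Points are embryos and bars are medians. The high groups have medians of 203, 497 and 52.9 CPM and the low groups 77.1, 48.2 and 7.50 CPM in experiments 1, 2 and 3.

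Marker counts ranged from 172 to 6836 in high marker libraries and from 2 to 561 in low marker libraries, so rank is least certain at the bottom of experiment 3, where embryo 15 had 2 marker counts. H2bc21, a histone H2B gene that the rule leaves out of all tests, had a median of 107 CPM (13.5 to 394) in high marker and 10.2 CPM (0 to 49.0) in low marker embryos. In control embryos its medians were 0.433, 228 and 35.5 CPM in experiments 1, 2 and 3. The control reporter had medians of 9.38e-04, 896 and 119 CPM there. H2bc21 counts thus went with the injected H2B fusion RNA, and a change of the gene itself was not tested. Of the 24 control embryos of experiment 1, 23 had under 1 CPM on both reporter rows and 10 had no count on the row of the control reporter, although their labels describe the same co-injection. Control embryos of experiment 1 were therefore not split by marker.

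Depth and measures of RNA quality did not differ between the groups beyond the spread between embryos. Library totals had a median of 4.54 M estimated counts (1.97 to 21.4) in high and 4.89 M (2.58 to 10.8) in low marker embryos. The log2 total differed by -0.0056 (SE 0.21, high minus low, permutation within experiments, two-sided p = 0.979). High marker embryos had 17696 ± 740 genes with counts and low marker embryos 17480 ± 662 (SD, n = 17 each, permutation p = 0.351). Transcripts of the mitochondrial genome took 8.00 ± 2.67% and 8.06 ± 1.69% of the counts in high and low marker embryos (SD, n = 17 each, permutation p = 0.921). The defining markers of oocyte and early embryo (Gdf9, Zp3, Dppa3 and Nlrp5) were present in both groups and summed to 1307 to 2649 CPM in high and 1624 to 3306 CPM in low marker embryos. Of 14 markers of cumulus and granulosa cells, the somatic cells around an oocyte, 2 were at 0 in each group, Amh was at 0 in all 34 embryos, and the sum was 8.30 to 66.6 CPM (median 17.4) in high and 4.41 to 46.7 CPM (median 18.5) in low marker embryos.

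The first question was whether embryos with more marker RNA had less Nr5a2 RNA. The Nr5a2 gene lies on the minus strand of chromosome 1 (chr1:136842571-136960448, GRCm38). In experiment 1 the 5 high marker embryos had 64.7, 46.0, 61.0, 60.4 and 36.3 CPM of Nr5a2, against 57.7, 29.4, 47.3, 31.8 and 21.9 CPM in the 5 low marker embryos. These ranges overlap, with the high marker embryos mostly above. In experiment 2 the high marker embryos had 43.1, 46.4, 45.8, 58.8 and 14.8 CPM, against 68.4, 61.0, 43.9, 116 and 25.6 CPM in low marker embryos. Here the high marker embryos were mostly below the low marker ones, again with overlap. In experiment 3 the lowest, median and highest were 20.9, 50.5 and 76.8 CPM in high and 17.6, 52.6 and 76.6 CPM in low marker embryos, which cover the same range.

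Over all 3 experiments Nr5a2 averaged 48.2 ± 16.1 CPM in high marker and 51.0 ± 24.4 CPM in low marker embryos (SD, n = 17 each). The log2 fold change of high over low was -0.05 (SE 0.22, 95% interval -0.51 to 0.40, adjusted p in edgeR = 0.936), a fold of 0.963. Of the 17 high marker embryos, 8 were above the median of the low marker embryos of their own experiment. The fold changes in the experiments fitted alone were 0.56, -0.59 and -0.08 on the log2 scale. The differences of mean log2 CPM were 0.56, -0.55 and -0.07. These differences had exact permutation p-values of 0.0873, 0.317 and 0.843 (two-sided, smallest possible 0.00794, 0.00794 and 0.000583). Permuting the marker group within all 3 experiments gave p = 0.912. The interval does not include a halving or a doubling of Nr5a2 between the groups, and differences inside it were not detectable at this number of embryos. An embryo's CPM is a share of its library, so less Nr5a2 RNA and more of all other RNA cannot be told apart.

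**Figure D2:**
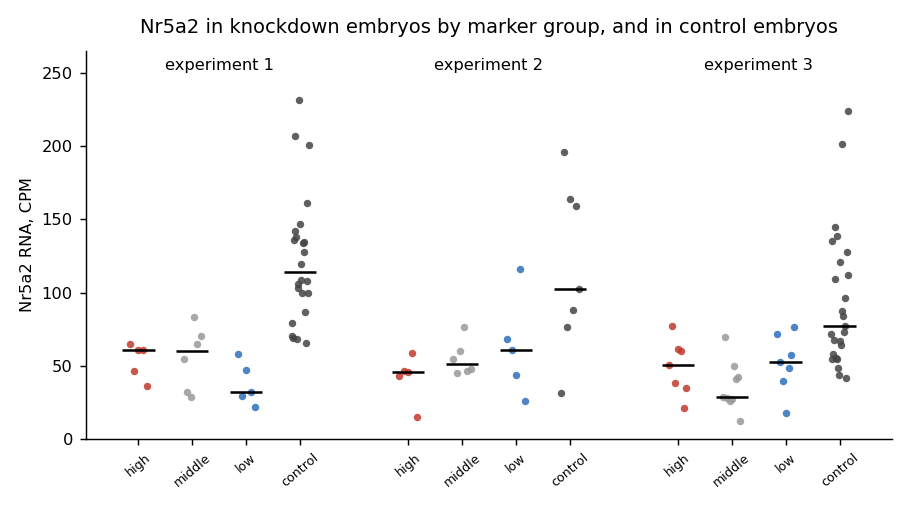
Nr5a2 RNA in CPM in knockdown embryos of the high, middle and low marker groups and in control embryos, by experiment. Points are embryos and bars are medians. The high marker embryos overlap the low marker embryos in every experiment, and 17 of 17 high and 16 of 17 low marker embryos lie below the control median of their experiment.

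Nr5a2 was low in both groups when set against control embryos, which averaged 109 ± 48.7 CPM (SD, n = 56). All 17 high marker embryos, all 21 middle embryos and 16 of the 17 low marker embryos were below the median of the control embryos of their own experiment. The exception was the low marker embryo with 116 CPM in experiment 2. A fit of each group against all control embryos, chosen after the data were seen, gave a log2 fold change of -1.17 (SE 0.19; in edgeR, adjusted p = 1.04e-04) for high marker and -1.10 (SE 0.19, adjusted p = 6.95e-04) for low marker embryos, which corresponds to 44.4% and 46.6% of the control level. Both comparisons use the same control embryos. These include the 24 of experiment 1, of which 23 had under 1 CPM on both reporter rows.

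Across all embryos of an experiment, middle ones included, log2 Nr5a2 and log2 marker CPM had Pearson's r of 0.424 in 16 knockdown embryos of experiment 1 (permutation p = 0.100; Spearman's rho 0.229, p = 0.390). Experiment 2 gave r = -0.305 over 16 knockdown embryos (permutation p = 0.246; rho -0.426, p = 0.101), and experiment 3 gave -0.140 over 23 (permutation p = 0.527; rho -0.029, p = 0.897). Without the 2 embryos farthest from the median marker level r became -0.059, -0.570 and 0.116 in experiments 1, 2 and 3, so the sign turned in experiments 1 and 3. The 25 control embryos of experiment 3 had r = 0.125 (permutation p = 0.570; rho 0.085, p = 0.684), or 0.330 without the 2 farthest, and the 7 of experiment 2 had r = -0.493 (exact permutation p = 0.268; rho -0.393, p = 0.396). None of these 5 relations passed after Benjamini-Hochberg adjustment, with a smallest adjusted p of 0.447 for r and 0.507 for rho.

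The 3 Nr5a2 transcripts that could be tested did not pass either. In the authors' deposited table of knockdown against control ENSMUST00000192929.5 has a log2 fold change of -1.56. Between the marker groups it averaged 13.7 ± 6.43 CPM in high and 21.9 ± 16.5 CPM in low marker embryos (SD, n = 17 each), a log2 fold change of -0.61 (SE 0.33; in edgeR, adjusted p = 0.853). ENSMUST00000192357.5 averaged 15.5 ± 10.3 CPM in high and 11.7 ± 10.3 CPM in low marker embryos, with a log2 fold change of 0.59 (SE 0.75). ENSMUST00000027649.13 averaged 16.3 ± 8.65 CPM in high and 13.9 ± 9.72 CPM in low marker embryos, with a log2 fold change of 0.25 (SE 0.35). Among 23272 transcripts none was called (0.00%) and 1309 (5.62%) had an unadjusted p under 0.05.

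All other genes were then compared between high and low marker embryos. Of 12981 genes tested with edgeR's quasi-likelihood test and experiment as a factor, 0 (0.00%) passed an adjusted p of 0.05. At an unadjusted p under 0.05 there were 1194 genes (9.20%), 514 lower (3.96%) and 680 higher (5.24%) in high marker embryos. On the same genes limma-voom called 0, although 1347 (10.4%) had an unadjusted p under 0.05. DESeq2, which left 2020 of the 12981 genes without an adjusted p, called 14 genes, 3 lower and 11 higher. The lower ones were Tsnax, Rnf103 and Gm10184, and the higher ones Tent5b, Pgs1, Zfp687, Traf4, Uvrag, Olfr889, 1190005I06Rik, Sipa1, Pik3cd, Tmem248 and Ikbkb. With marker level as a continuous term over all 55 knockdown embryos edgeR called 0 of 14103 genes tested, and 518 (3.67%) had an unadjusted p under 0.05. Leaving out single embryos gave calls in 3 of 34 cases. Without embryo 7 of experiment 1, the deepest library, Pgs1 and Tent5b were called, without embryo 11 of experiment 2 Tent5b was, and without embryo 15 of experiment 3, the one with 2 marker counts, 6 genes were (Slc35c2, Pgs1, Tent5b, Ski, Ano10 and Tsnax).

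The values of the 4 genes with the smallest p in DESeq2 follow. None of them passed the threshold in edgeR over all 34 embryos. Tsnax on chromosome 8 (chr8:125012997-125034192, plus strand) encodes the partner of translin in an endonuclease complex that assists the loading of small interfering RNA. It had 25.9, 34.8 and 54.3 CPM (lowest, median and highest) in high marker and 36.2, 56.8 and 117 CPM in low marker embryos. In experiment 1 the high marker embryos had 32.7, 36.3, 50.0, 27.3 and 32.3 CPM and the low marker embryos 93.0, 81.4, 56.8, 36.2 and 41.0 CPM. In experiment 2 they had 34.8, 28.04, 31.6, 54.3 and 37.8 CPM against 48.3, 68.0, 44.6, 56.8 and 48.5 CPM in low marker embryos. The groups overlapped in each experiment, and 16 of 17 high marker embryos were not above the low marker median of their experiment. The means were 37.3 ± 8.71 and 62.9 ± 21.7 CPM in high and low marker embryos (SD, n = 17 each), and the log2 fold change was -0.74 (SE 0.16; in edgeR, adjusted p = 0.147), with -0.75, -0.51 and -0.85 in experiments 1, 2 and 3.

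Tent5b on chromosome 4 (chr4:133480132-133487938, plus strand) encodes a non-canonical poly(A) polymerase. It had 125, 322 and 667 CPM (lowest, median and highest) in high marker and 38.0, 159 and 525.8 CPM in low marker embryos. In experiment 3 the high marker embryos had 171 to 398 CPM and the low marker embryos 38.0 to 186 CPM, and 1 low marker embryo, at 186 CPM, lay inside the high marker range. The means were 345 ± 134 and 180 ± 113 CPM in high and low marker embryos (SD, n = 17 each). The log2 fold change was 1.03 (SE 0.21; in edgeR, adjusted p = 0.129), with 1.00, 0.68 and 1.33 in experiments 1, 2 and 3, and 16 of 17 high marker embryos were above the low marker median.

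Pgs1 on chromosome 11 (chr11:117986292-118024011, plus strand) encodes the mitochondrial enzyme that makes phosphatidylglycerophosphate on the way to cardiolipin. It had 64.2, 148 and 274 CPM (lowest, median and highest) in high marker and 57.2, 81.0 and 157 CPM in low marker embryos. The means were 146 ± 50.6 and 89.3 ± 23.9 CPM in high and low marker embryos (SD, n = 17 each), and the log2 fold change was 0.72 (SE 0.15; in edgeR, adjusted p = 0.129). It was 0.62, 0.75 and 0.81 in experiments 1, 2 and 3. Embryo 7 of experiment 1 had the lowest value of the high marker embryos, 64.2 CPM, and was the only one not above the low marker median.

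Zfp687 on chromosome 3 (chr3:95006590-95015448, minus strand), which encodes a zinc finger protein, was above the low marker median of its experiment in 17 of 17 high marker embryos. It had 13.2, 26.003 and 45.3 CPM (lowest, median and highest) in high marker and 2.71, 11.4 and 34.7 CPM in low marker embryos. In experiment 3 the groups did not overlap, with 13.5 to 26.003 CPM in high and 4.96 to 11.9 CPM in low marker embryos. They overlapped in experiment 1 (13.2 to 32.6 CPM in high, 10.9 to 19.0 CPM in low) and experiment 2 (26.5 to 45.3 CPM in high, 2.71 to 34.7 CPM in low). Zfp687 was named for its small p in these same embryos. How many of all tested genes separate in this way was not counted. The log2 fold change was 0.93 (SE 0.21; in edgeR, adjusted p = 0.306).

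**Figure D3:**
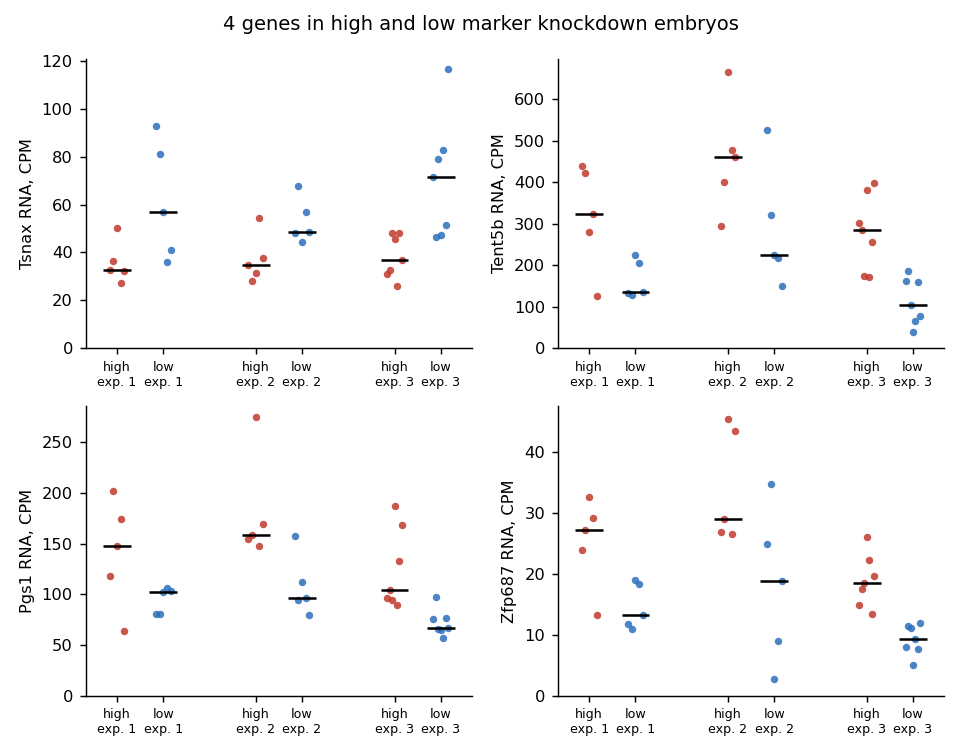
Tsnax, Tent5b, Pgs1 and Zfp687 RNA in CPM in high and low marker knockdown embryos of experiments 1, 2 and 3 (exp.). Points are embryos and bars are medians. Tsnax medians are lower in the high marker group of each experiment, and those of the other 3 genes are higher, with overlapping ranges in most panels.

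The other genes with the smallest p did not pass the threshold either. Dlgap5, a mitotic spindle protein, averaged 22.5 ± 9.68 CPM in high and 39.1 ± 13.1 CPM in low marker embryos, a log2 fold change of -0.80 (SE 0.21; in edgeR, adjusted p = 0.438). Prkaa1, a catalytic subunit of the energy sensor AMPK, averaged 14.2 ± 6.62 CPM in high and 25.7 ± 12.0 CPM in low marker embryos, and its log2 fold change was -0.82 (SE 0.23). Scfd2, of the Sec1 family of vesicle trafficking proteins, averaged 27.6 ± 18.0 CPM in high and 53.9 ± 22.3 CPM in low marker embryos (log2 fold change -0.99, SE 0.28). Smpd1, the acid sphingomyelinase of lysosomes, had the largest fold change of these, -1.50 (SE 0.42). Its medians were 24.9 CPM in high and 45.0 CPM in low marker embryos, and 4 low marker embryos at 199, 280, 333 and 422 CPM lie far above the rest. Traf4, a signalling adaptor, averaged 72.6 ± 20.4 CPM in high and 45.2 ± 18.1 CPM in low marker embryos (log2 fold change 0.72, SE 0.18). Uvrag, a member of the Beclin 1 complex of autophagy, averaged 148 ± 51.3 CPM in high and 90.6 ± 26.8 CPM in low marker embryos (log2 fold change 0.73, SE 0.18). All of these had 1 sign in the 3 experiments fitted alone. They were chosen for their small p over the same embryos, which favours 1 sign. How many of all tested genes had 1 sign was not counted.

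No gene of the lists that handle small, foreign or decaying RNA passed in edgeR over all 34 embryos, while DESeq2 called Tsnax (adjusted p = 0.0106) and Tent5b (adjusted p = 0.00658) among them. Of 20 small RNA pathway genes tested, 0 were called in edgeR, and 3 were lower (Tsnax, Ago3 and Adar) and 2 higher (Tarbp2 and Tnrc6c) at an unadjusted p under 0.05, beside 3.96% and 5.24% of all genes. Their median log2 fold change was -0.03, beside -0.01 over all genes. Ago3, an Argonaute protein, had a log2 fold change of -0.44 (SE 0.16) and Tarbp2, the RNA-binding partner of Dicer, 0.46 (SE 0.18). Of 23 tested genes of foreign RNA sensing and the interferon response, 0 were called in edgeR, and the median was 0.09. At an unadjusted p under 0.05, 1 was lower (Isg20, -0.59, SE 0.22) and 1 higher (Eif2ak2), beside 3.96% and 5.24% of all genes. Eif2ak2, the kinase PKR that double-stranded RNA activates, had the smallest p in that list and averaged 9.37 ± 6.52 CPM in high and 4.66 ± 1.96 CPM in low marker embryos (SD, n = 17 each). Its lowest, median and highest values were 2.50, 6.42 and 23.6 CPM in high and 2.19, 4.33 and 8.71 CPM in low marker embryos, so the ranges overlap with the highest embryos all in the high marker group. The log2 difference was 0.96 (SE 0.27; in edgeR, adjusted p = 0.445), and 1.26, 0.66 and 0.99 in experiments 1, 2 and 3. Of 58 genes of mRNA decay and poly(A) tails, 2 were lower and 5 higher at an unadjusted p under 0.05, beside 3.96% and 5.24% of all genes, and the median was -0.10. Tent5b, Dcp2, the decapping enzyme (0.44, SE 0.18), and Zfp36, which binds AU-rich elements (0.68, SE 0.29), were among the higher ones. The 2 lower ones were Exosc3 (-0.89, SE 0.32) and Tent4b (-0.43, SE 0.19), and 36 of the 58 genes had a negative fold change.

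Lists tied to Nr5a2 and to genome activation held no gene called in edgeR. Among 14 nuclear receptors other than Nr5a2, the median was -0.12, and Rxra, the shared partner of many receptors, averaged 29.7 ± 22.6 CPM in high and 69.5 ± 60.4 CPM in low marker embryos. Its log2 fold change was -1.02 (SE 0.37) over all experiments, 0.05 in experiment 1, -1.51 in experiment 2 and -1.37 in experiment 3. The 14 genes that an earlier result of these embryos gave as lower in knockdown had a median of -0.25, with 12 negative, and the 14 given as higher had a median of 0.12, with 11 positive. These lists were chosen on embryos that include the ones compared here, so they are not independent evidence of a direction. In experiment 1 the median of the first list was 0.17, and in experiments 2 and 3 it was -0.38 and -0.40. Rffl, a RING finger ubiquitin ligase of the first list, averaged 42.9 ± 29.1 CPM in high and 80.8 ± 58.7 CPM in low marker embryos. Poglut3, a protein O-glucosyltransferase of the second list, went against its list and averaged 13.9 ± 13.3 CPM in high and 32.7 ± 24.1 CPM in low marker embryos, with log2 fold changes of -1.16, -1.03 and -1.37 in experiments 1, 2 and 3.

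The 32 tested 2-cell burst transcripts, which are made for a short time at genome activation, had a median log2 fold change of 0.16 with 21 positive. By experiment the medians were 0.97 in experiment 1, 0.12 in experiment 2 and -0.12 in experiment 3, and without experiment 1 the median was -0.09. Usp17le, a deubiquitinase gene with near-identical copies among which counts may be split, averaged 15.2 ± 19.7 CPM in high and 5.24 ± 3.80 CPM in low marker embryos (log2 fold change 1.43, SE 0.48). The 7 Obox homeobox genes had a median of -0.08, and Obox6 averaged 483 ± 209 CPM in high and 581 ± 184 CPM in low marker embryos. Among 26 regulators of genome activation and pluripotency 21 had a negative fold change, with a median of -0.18. Nfyb, a subunit of the CCAAT-binding factor NF-Y, averaged 28.9 ± 17.0 CPM in high and 55.1 ± 29.9 CPM in low marker embryos (log2 fold change -0.90, SE 0.26), while Pou5f1, the pluripotency factor Oct4, had a log2 fold change of 0.73 (SE 0.31). The 50 oocyte-deposited transcripts had a median of 0.07, and Zp2, a zona pellucida protein made in the oocyte, averaged 135 ± 45.3 CPM in high and 85.7 ± 38.5 CPM in low marker embryos (0.68, SE 0.21). Zp3, another zona protein, had the opposite sign (-0.39, SE 0.16).

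Genes of protein synthesis mostly had negative fold changes in 2 of 3 experiments, with no member called in edgeR. Of 89 cytosolic ribosomal protein genes, 82 had a negative log2 fold change and the median was -0.28, beside -0.01 over all genes. At an unadjusted p under 0.05, 6 were lower, Rpl41 and Rps2 among them, beside 3.96% of all genes. The median was -0.47 in experiment 1, with 82 negative, and -0.37 in experiment 3, with 85 negative, but 0.10 in experiment 2, where 24 were negative. With marker level as a continuous term over all 55 knockdown embryos the median slope was 0.003 per log2 unit of marker, a quantity on another scale than the difference between groups. In experiment 1 the mean log2 CPM over these genes was 5.25 to 6.97 in high and 5.88 to 7.16 in low marker embryos, so the embryos overlapped widely. The 50 translation factors had a median of -0.17, with 41 negative, and 0.06 in experiment 2. Eif4e2, a cap-binding protein that represses translation, was named for the smallest p of its list in these same embryos. It was not above the low marker median in any of 17 high marker embryos. How many of all tested genes split in this way was not counted. Eif4e2 averaged 30.2 ± 10.7 CPM in high and 42.0 ± 15.6 CPM in low marker embryos (log2 fold change -0.46, SE 0.17; in edgeR, adjusted p = 0.481). Eef1a1, the elongation factor, had the opposite sign (0.30, SE 0.14).

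Lists of stress and the cell cycle had medians within 0.16 of 0. The 20 genes of the integrated stress response had a median of -0.09, the 23 heat shock genes 0.02, the 26 p53 targets -0.01, the 52 genes of DNA replication -0.08, and the 40 of G2 and mitosis -0.13. Hspa2, a member of the HSP70 family, averaged 158 ± 100.3 CPM in high and 81.2 ± 63.6 CPM in low marker embryos (log2 fold change 0.92, SE 0.34), with 15 of 17 high marker embryos above the low marker median. Cdkn1a, the cell cycle inhibitor p21, averaged 110.2 ± 36.9 CPM in high and 84.4 ± 23.2 CPM in low marker embryos (0.40, SE 0.17). Pole2, a subunit of DNA polymerase epsilon, averaged 13.3 ± 4.74 CPM in high and 21.4 ± 9.45 CPM in low marker embryos (-0.67, SE 0.23), and Mad2l1, of the spindle checkpoint, 180.3 ± 81.3 and 245 ± 95.1 CPM. Core histone genes and their chaperones had a median of -0.16 over 36 genes, and Slbp, which binds the stem loop of histone mRNA, averaged 303 ± 87.8 CPM in high and 395 ± 120 CPM in low marker embryos. Hspa2, Cdkn1a, Pole2, Mad2l1 and Slbp had the smallest p of their lists. They were named for it, so the 15 of 17 for Hspa2 follows in part from that choice. At an unadjusted p under 0.05, p53 targets held 1 lower and 1 higher gene, and DNA replication 4 lower and 2 higher. G2 and mitosis held 3 lower and 0 higher, and the histone list 1 lower and 3 higher, beside 3.96% and 5.24% of all genes. Lig1 of DNA replication (1.12, SE 0.45) and H2ac18 of the histone list (0.89, SE 0.42) were among the higher ones. Sesn1 was the lower p53 target (-0.44, SE 0.21). The 13 mitochondrial genome transcripts had a median of -0.005, and mt-Co2, with the smallest p among them, averaged 3214 ± 1871 and 3381 ± 1532 CPM in high and low marker embryos. Of the cumulus and granulosa list 5 genes passed the filter on low counts, 0 were called in edgeR, and Sparc had medians of 14.9 CPM in high and 12.2 CPM in low marker embryos. Its log2 fold change of 0.61 (SE 0.53) included embryo 10 of experiment 1, a high marker embryo at 149.55 CPM, and was 0.05 (SE 0.43) without it.

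**Figure D4:**
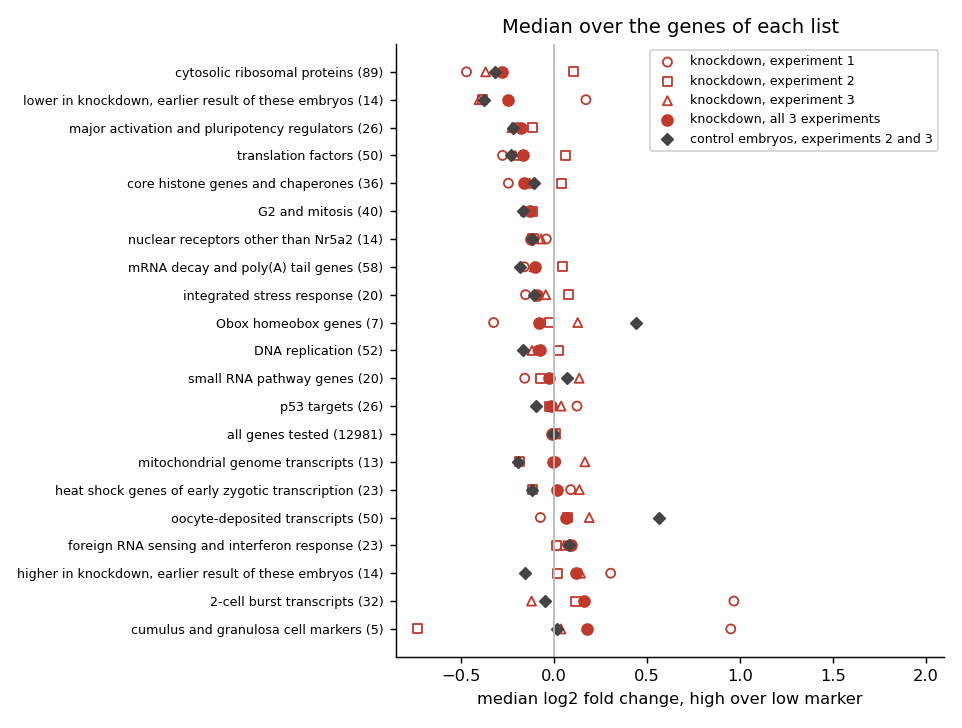
Median log2 fold change of high over low marker for each gene list, with the number of genes tested in brackets, in knockdown embryos over all experiments (filled circles), in experiments 1, 2 and 3 (open symbols) and in control embryos of experiments 2 and 3 (diamonds). The ribosomal list is at -0.28 over all experiments and at 0.10 in experiment 2, and the 2-cell burst list reaches 0.97 in experiment 1.

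No gene's fold change differed between experiments past the threshold. The test of marker group by experiment called 0 of 12981 genes (0.00%) in edgeR, with 264 (2.03%) at an unadjusted p under 0.05. Experiments 1, 2 and 3 fitted alone in edgeR each called 0 genes (0.00%), with 689, 322 and 547 genes at an unadjusted p under 0.05 (5.30%, 2.62% and 4.24%).

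Control embryos gave the same contrast without the Nr5a2 siRNAs. In experiments 2 and 3, 10 control embryos with high and 10 with low marker were compared (2 and 2 from experiment 2, 8 and 8 from experiment 3), ranked by the control reporter, and none of them is in the knockdown groups. Of 14777 genes tested 0 were called (0.00%) and 1539 (10.4%) had an unadjusted p under 0.05. Of the 12981 genes tested in knockdown embryos, 9115 (70.2%) had the same sign in control embryos. Of the 1194 with an unadjusted p under 0.05 in knockdown embryos 1041 (87.2%) had the same sign in control embryos, and 314 also had an unadjusted p under 0.05 there. Across all 12981 genes the log2 fold changes of knockdown and control embryos had a Pearson's r of 0.465, given as a description, since genes of 1 embryo share its library and are not independent.

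Some of the genes named above are set beside their values in control embryos, and no gene differed between the arms past the threshold in edgeR. Pgs1 had a log2 fold change of 1.03 (SE 0.20; in edgeR, adjusted p = 0.0508) in control embryos, Tent5b 1.16 (SE 0.31), Uvrag 1.01 (SE 0.24) and Traf4 0.40 (SE 0.25). Dlgap5, Prkaa1, Scfd2 and Smpd1 had -0.63, -0.51, -0.78 and -0.89. Nfyb, Zp2 and Pou5f1 also kept their sign, at -0.55, 0.81 and 1.04. Hspa2 (-0.05), Cdkn1a (-0.11), Lig1 (-0.74), Zfp36 (-0.24), Slbp (0.01) and Adar (0.38) had the opposite sign in control embryos. Rxra had -0.12 in control embryos, against -1.45 in knockdown embryos of experiments 2 and 3. Tsnax had 0.07 (SE 0.21) in control embryos, against -0.73 in knockdown embryos of the same 2 experiments, a difference of -0.80 (SE 0.28, unadjusted p = 0.0071, adjusted p in edgeR = 1). Zfp687 had 0.25 (SE 0.29) in control embryos, with a difference, knockdown minus control, of 0.74 (SE 0.39, unadjusted p in edgeR = 0.0619). Eif2ak2 had 0.24 (SE 0.37), with a difference of 0.61 (SE 0.50, unadjusted p in edgeR = 0.236). Tsnax, Zfp687 and Eif2ak2 were named for their small p in knockdown embryos that also enter these differences. That choice favours a large difference, so the unadjusted p-values cannot show that an effect is particular to knockdown embryos. Of the 89 ribosomal protein genes 84 were negative in control embryos, with a median of -0.32, beside -0.19 in knockdown embryos of experiments 2 and 3. The oocyte-deposited transcripts had a median of 0.56 in control embryos, with 44 of 50 positive, beside 0.14 in knockdown embryos of experiments 2 and 3. The difference between arms was not tested for either list.

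Nr5a2 had a log2 fold change of 0.24 (SE 0.34) in control embryos and -0.30 (SE 0.30) in knockdown embryos of experiments 2 and 3. The difference was -0.54 (SE 0.45, unadjusted p in edgeR = 0.237), so an effect of marker level on Nr5a2 that is present with the Nr5a2 siRNAs and absent without them was not detected. The test of this difference over all genes called 0 of 14777 (0.00%), with 298 (2.02%) at an unadjusted p under 0.05.

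**Figure D5:**
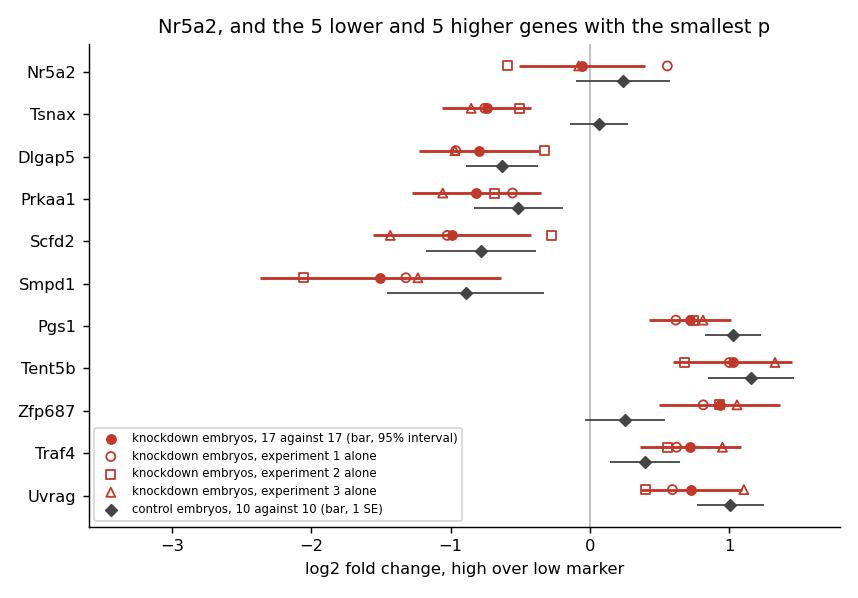
Log2 fold change of high over low marker for Nr5a2 and the 5 lower and 5 higher genes with the smallest p, in knockdown embryos (filled circle with 95% interval), in each experiment alone (open symbols), and in control embryos of experiments 2 and 3 (diamond, bar of 1 SE). Nr5a2 is at -0.05 with an interval across 0, and Tsnax is at -0.74 in knockdown and 0.07 in control embryos.

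Against all 56 control embryos, high marker embryos had 74 called genes of 15352 (0.482%), 27 lower (0.176%) and 47 higher (0.306%), and low marker embryos had 9 (0.0586%), 3 lower (0.0195%) and 6 higher (0.0391%) (edgeR quasi-likelihood, adjusted p under 0.05). These counts share their control embryos and do not test high against low, for which the direct fit called 0. The control embryos include the 24 of experiment 1, which had almost no reporter counts. Of the 14 genes given earlier as lower in knockdown 4 were called in high marker embryos and 0 in low marker embryos, and their medians were -0.80 and -0.52. Of the 14 given as higher 10 were called in high marker and 6 in low marker embryos, with medians of 0.72 and 0.64. Both lists were chosen on these embryos.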

How the data were processed

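Single 2-cell embryos were sequenced with SmartSeq2 and oligo dT priming, per the labels' protocols. The submitters' processing notes name kallisto 0.46.1, reads trimmed by Trim Galore 0.6.2 and DESeq2 1.32.0 under R 3.5.1. Strand was not recorded, and no source used here gives the annotation release. Raw estimated counts (expected counts) of transcripts, as the authors deposited them, were analysed. The authors' deposited comparison table gave gene symbols and the log2 fold change of 1 Nr5a2 transcript.

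Of 119358 transcripts, 117194 had a symbol and were summed to 35973 symbols and rounded. Transcripts without a symbol held a median of 0.994% of the counts (0.776% to 1.29%) and entered neither library sizes nor tests, and neither did the 2 reporter rows and H2bc21. Library totals of knockdown embryos were 1.97 to 21.4 M. No 2 libraries were identical (highest Pearson's r 0.936).

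The 34 embryos were fitted with edgeR 4.0.16 on R 4.3.3 with limma 3.58.1. Genes passed filterByExpr by marker group and were scaled by TMM. The quasi-likelihood F-test had experiment as a factor and 30 residual degrees of freedom, and p-values were adjusted by Benjamini-Hochberg at 0.05. CPM of genes use TMM-scaled library sizes over all 111 embryos. Marker CPM use the column total. The SE comes from the fold change and F, and the 95% interval from the t distribution. DESeq2 1.42.0 and limma-voom were alternatives. Single measures were compared by 100000 permutations within experiments, and exactly within 1 experiment. The design foresaw 6 relations of Nr5a2 with marker and a split of control embryos in all experiments. Experiment 1 control embryos had almost no reporter, so 5 relations and experiments 2 and 3 were used. Scripts were tested on simulated data. Positions are from GENCODE M21 (GRCm38).

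The rule for named genes took Nr5a2, the 5 lower and 5 higher genes with the smallest p and an average log2 CPM of at least 4 without a clone name, and the member of each of 20 lists with the smallest p, 28 genes in all, of which 1 is not reported here. Other genes were named after their values were seen. Members and lists were chosen with earlier results of these data known.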

Additional observations from a re-analysis of the deposited data

Results flagged for a closer look

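Of 90 groups of 5 to 7 embryos examined, 8 had an embryo far from the others by Dixon's criterion, which chance flags in about 1 of 20 groups. In experiment 1, high marker embryo 7 had a library of 21.373 M estimated counts, against 3.65 to 4.76 M in the other 4. The same embryo had 39.058 CPM of Dlgap5, against 10.46 to 17.2 CPM in the others, and 49.68 CPM of Scfd2, against 11.8 to 17.3 CPM. In experiment 2, high marker embryo 16 had the lowest Dlgap5, 15.459 CPM, against 27.6 to 31.4 CPM, and the highest Pgs1, 274.43 CPM, against 147.5 to 169 CPM. In experiment 3, library totals stood apart for high marker embryo 16 with 7.2786 M, against 4.44 to 5.16 M, and for low marker embryo 22 with 10.812 M, against 4.08 to 5.88 M. Low marker embryo 9 of experiment 3 had 333.47 CPM of Smpd1, against 21.9 to 121.7 CPM in the other 6.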

How the results depend on the processing

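The count of 0 genes was also 0 under both other scalings, without a filter on low counts, with limma-voom, over all 55 embryos, under both other rankings by marker, with library total as a term, and with each experiment alone or left out. It was 14 with DESeq2 and 0 to 6 with single embryos left out. The cause was not tested. No call was made either without the 2 low marker embryos under 3 CPM of marker, an alternative chosen after the data were seen.

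Nr5a2 (-0.05) was positive in experiment 1 alone (0.557), without experiment 2 (0.176) and without those 2 embryos (0.00586), and ran from -0.115 to 0.0548 with single embryos left out. None of these passed. By permutation its log2 difference was 0.561 in experiment 1. The library measures turned sign for the total in experiment 1 (0.344), genes detected in experiments 2 and 3 (-93.8 and -24.3) and mitochondrial percent in experiment 3 (0.376).

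Of 459 values of the 27 other named genes under alternatives, 445 kept sign and side of the threshold, 6 passed it (DESeq2) and 8 turned sign: Rxra in experiment 1 (0.0538), Obox6 with continuous marker (a slope of 0.00193 per log2 unit), Slbp in experiment 2 (0.0140), mt-Co2 in experiments 1 and 3 (0.0518 and 0.0546) and without experiment 2 (0.0369), and Sparc without experiment 1 (-0.000208) and in experiment 2 (-0.566). Of 918 values with 1 embryo left out 6 passed and 0 turned sign. No paired analysis was possible because embryo numbers are unique within an experiment, so the high and low groups of 1 experiment share none.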

Other observations

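The gene with the smallest p for a difference between arms was Marchf4, with a log2 fold change of high over low marker of 3.86 (SE 0.79) in knockdown and -0.13 (SE 0.74) in control embryos of experiments 2 and 3 (adjusted p of the difference in edgeR 1). Xaf1, known as an interferon-induced gene, had 1.25 (SE 0.40) in knockdown and -0.91 (SE 0.44) in control embryos (adjusted p of the difference in edgeR 1). Both genes were chosen after their values were seen. Slc26a2, a sulfate transporter, had the smallest p in the test of marker group by experiment (unadjusted p = 0.000282, adjusted p in edgeR = 1.00).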
